A study of Mus musculus with 12 samples.

Results

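The endoplasmic reticulum (ER) chaperones and unfolded protein response genes described here are *Hspa5*, *Hsp90b1*, *Hyou1*, *Calr*, *Pdia4*, *Pdia6*, *Dnajb9*, *Sdf2l1*, *Herpud1* and *Xbp1*. They were chosen by name for their known functions, with earlier results of these data known. They are 10 of the 54532 genes listed in the table of counts. All 10 passed the filter on low counts, which left 14894 genes for testing. Their expression was measured by RNA-seq in 12 libraries of bone marrow cells from wild-type (WT) C57BL/6 mice, 4 cultured with vehicle (0.1% DMSO), 4 with 10 µM indole-3-propionic acid (IPA) and 4 with 50 µM IPA. IPA is a product of tryptophan breakdown by gut bacteria. Cells of all 3 groups grew for 5 days in RPMI with serum, GM-CSF and IL-6, cytokines under which marrow cells differentiate into myeloid cells, so the vehicle group is a cytokine-treated culture and not fresh marrow. The mouse of origin of each culture is not given in the sources used here, and p-values therefore measure the spread between these libraries, which may be technical. The comparisons asked how these genes responded to each dose and whether the doses differed.

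Proteins that enter the secretory pathway fold in the ER, where chaperones of the heat shock families, lectin chaperones and disulphide isomerases bind them. When unfolded proteins accumulate, the membrane sensors IRE1, PERK and ATF6 start the unfolded protein response. IRE1 splices the mRNA of the transcription factor XBP1, ATF6 is cleaved into a transcription factor, and PERK slows translation while the factors ATF4 and CHOP are made. Myeloid precursors that fill granules with enzymes, and plasma cells that secrete antibody, are known for a large ER.

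The response is known to act through promoter elements, and promoters are shown here because such elements connect the sensors with the chaperone genes. RefSeq promoter windows (GRCm38.p6, 250 bases before to 50 bases after the start of the transcript) were matched by symbol for 9 of the 10 genes. An exact search on both strands was made for the ER stress response element, or ERSE, whose letters are CCAAT and CCACG with any 9 bases between them. It was found in 4 of the 9 windows, those of *Hspa5*, *Hsp90b1*, *Pdia6* and *Calr*, with 2 copies in that of *Hsp90b1*. Of all 27025 genes with a window, 0.137% held it. The related ERSE-II, ATTGG and CCACG with any 1 base between them, lay in the window of *Herpud1* and in 0.0444% of all genes. *Herpud1* also held the C/EBP-ATF core TGATGNAA, found in 4.51% of all genes, and the matches in this window did not overlap. The UPRE core TGACGTGG was found in no window of the 9 genes and in 0.714% of all genes. A match of letters is a description and does not show that a factor bound there. The 250 bases before each start site follow, 5′ to 3′ on the strand of the gene, with the fixed letters of each match in capitals.
*Hspa5* (chr2:34771840-34772089, plus strand): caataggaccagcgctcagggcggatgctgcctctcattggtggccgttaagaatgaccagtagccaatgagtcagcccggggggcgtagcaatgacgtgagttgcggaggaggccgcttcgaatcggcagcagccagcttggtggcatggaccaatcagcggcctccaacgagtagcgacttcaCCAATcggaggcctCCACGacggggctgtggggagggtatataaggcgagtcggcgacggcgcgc
*Hsp90b1* (chr10:86705445-86705694, minus strand): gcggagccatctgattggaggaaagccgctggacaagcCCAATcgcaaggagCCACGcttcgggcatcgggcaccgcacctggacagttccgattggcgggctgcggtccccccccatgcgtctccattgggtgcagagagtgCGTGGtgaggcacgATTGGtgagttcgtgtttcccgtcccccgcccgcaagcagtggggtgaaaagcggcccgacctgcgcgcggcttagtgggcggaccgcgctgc
*Pdia6* (chr12:17266339-17266588, plus strand): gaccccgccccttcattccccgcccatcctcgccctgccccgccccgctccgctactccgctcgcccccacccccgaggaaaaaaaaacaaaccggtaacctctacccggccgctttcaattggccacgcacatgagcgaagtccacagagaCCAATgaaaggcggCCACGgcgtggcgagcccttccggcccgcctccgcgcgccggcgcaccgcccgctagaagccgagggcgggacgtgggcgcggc
*Calr* (chr8:84846932-84847181, minus strand): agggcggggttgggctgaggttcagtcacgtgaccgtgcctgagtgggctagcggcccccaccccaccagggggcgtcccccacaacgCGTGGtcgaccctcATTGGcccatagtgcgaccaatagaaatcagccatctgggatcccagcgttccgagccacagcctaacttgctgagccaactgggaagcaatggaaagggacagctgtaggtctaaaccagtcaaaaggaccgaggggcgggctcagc
*Herpud1* (chr8:94386179-94386428, plus strand): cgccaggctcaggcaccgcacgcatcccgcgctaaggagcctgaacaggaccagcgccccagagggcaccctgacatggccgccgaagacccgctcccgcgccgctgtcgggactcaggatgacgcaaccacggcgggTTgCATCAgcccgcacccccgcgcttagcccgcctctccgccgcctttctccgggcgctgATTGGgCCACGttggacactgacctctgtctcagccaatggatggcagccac
Neither of the genes with the clearest differences between the groups, *Dnajb9* and *Xbp1*, held any of the 4 motifs, and their promoters are given for comparison.
*Dnajb9* (chr12:44210069-44210318, minus strand): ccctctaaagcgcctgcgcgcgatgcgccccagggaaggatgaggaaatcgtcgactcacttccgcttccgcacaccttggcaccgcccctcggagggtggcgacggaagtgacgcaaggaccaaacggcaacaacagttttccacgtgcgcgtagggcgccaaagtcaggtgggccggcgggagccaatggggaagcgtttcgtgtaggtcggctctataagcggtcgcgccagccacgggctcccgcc
*Xbp1* (chr11:5520391-5520640, plus strand): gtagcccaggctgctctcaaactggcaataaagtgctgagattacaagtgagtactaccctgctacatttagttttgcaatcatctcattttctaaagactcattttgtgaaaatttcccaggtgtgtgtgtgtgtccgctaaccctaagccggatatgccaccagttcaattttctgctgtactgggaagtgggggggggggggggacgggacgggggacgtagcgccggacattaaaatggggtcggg

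Counted from the start site as position 0, the ERSE of *Hspa5* lay at -65 to -47 and read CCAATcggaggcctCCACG. That of *Pdia6* lay at -98 to -80 and read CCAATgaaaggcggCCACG. *Hsp90b1* held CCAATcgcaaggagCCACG at -212 to -194 and, on the opposite strand, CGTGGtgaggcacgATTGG at -107 to -89. The element of *Calr*, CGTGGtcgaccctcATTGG, was also on the opposite strand, at -162 to -144. In *Herpud1* the ERSE-II ATTGGgCCACG lay at -52 to -42 and the C/EBP-ATF core, read as TTgCATCA, at -112 to -105. The windows of *Pdia4* and *Sdf2l1*, like those of *Dnajb9* and *Xbp1*, held no match to these letters.

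To compare levels between genes, counts were divided by exon length and scaled to the same sum in every library (TPM). *Calr* had the highest mean level of the 10 genes over the 12 libraries, 1905 TPM (range 1569 to 2116), and ranked 48 among the genes tested. *Hspa5* followed with 1041 TPM (861 to 1117) and *Hsp90b1* with 677.8 TPM (581.8 to 774.1), and the ranges of these 3 genes did not overlap. *Pdia4* (mean 496 TPM), *Sdf2l1* (458.7 TPM) and *Xbp1* (431.7 TPM) came next, and their ranges overlapped. *Pdia6* had 349.6 TPM (330.3 to 374.3), below every library of these 3 genes. *Hyou1* (168.5 TPM, 133.4 to 190.2) and *Herpud1* (125.8 TPM, 115.7 to 134.4) overlapped at the edge. *Dnajb9* had the lowest level, 48.94 TPM (31.83 to 60.16), and ranked 3238. Counts per library ranged from 603 to 1401 for *Dnajb9* and from 33577 to 55980 for *Calr*.

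Tests were made with edgeR's quasi-likelihood method on the 8 libraries of each pair of groups, with p-values adjusted over all 14894 genes and a threshold of 0.05. Of the 10 genes, 0 passed at 10 µM against vehicle, where 0.329% of all genes tested were called higher and 0.0806% lower. DESeq2 and limma-voom also called 0 of them, and only *Pdia4* had an unadjusted p under 0.05. At 50 µM against vehicle 1 gene was called lower and 0 higher, beside 6.50% of all genes called lower and 7.00% called higher. Between 50 and 10 µM 2 genes were called lower and 1 higher, beside 7.85% and 7.52% of all genes. The groups did not overlap for 2 of the 10 genes at 10 µM against vehicle (6.13% of all genes), for 3 at 50 µM against vehicle (20.0%) and for 3 between the doses (20.3%). The median log2 fold change of the 10 genes was 0.01 at 10 µM and -0.07 at 50 µM against vehicle, and -0.12 between 50 and 10 µM, while the medians of all genes tested were -0.01, 0.01 and 0.01. The comparisons with vehicle share the vehicle libraries, and those with 50 µM share the 50 µM libraries, so their values are given side by side and are not independent.

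**Figure D1:**
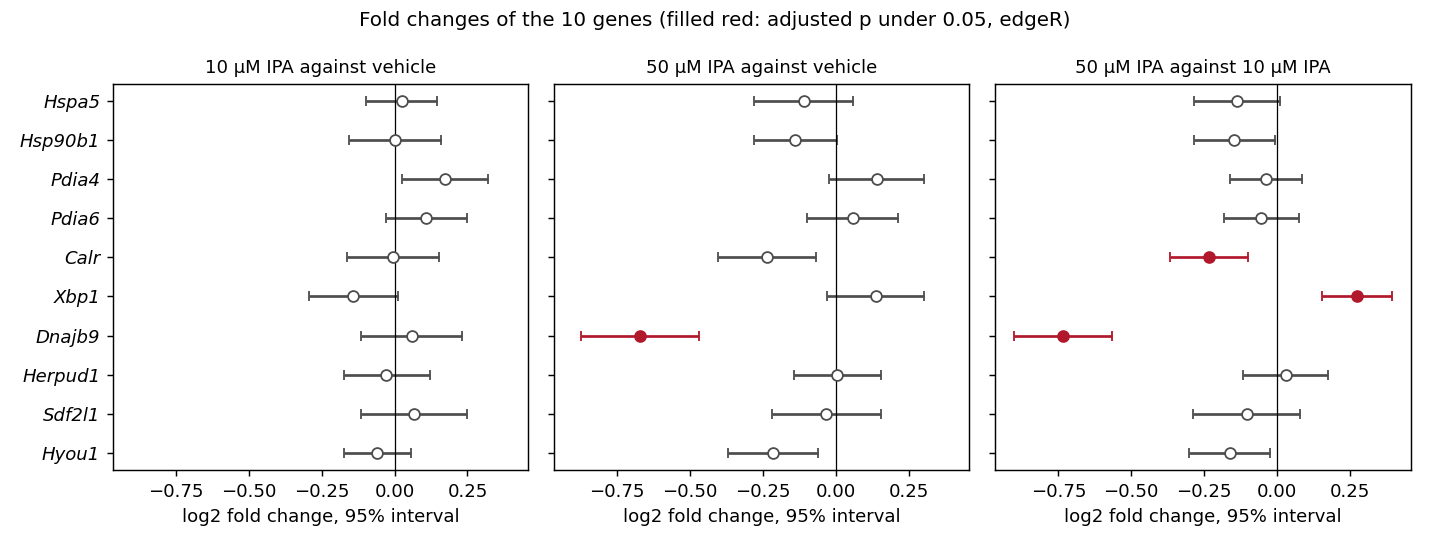
Log2 fold change of each of the 10 genes (points) with its 95% confidence interval (bars) in the 3 comparisons, by edgeR, with genes at an adjusted p under 0.05 filled in red. *Dnajb9* lies far to the left of the other genes in both comparisons with 50 µM, *Calr* and *Xbp1* are called only between the doses, and 0 genes are called at 10 µM against vehicle.

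In the following, expression is given as CPM, a gene's counts relative to the total of its library, normalized over the 12 libraries by TMM and not divided by gene length, for replicates 1 to 4 of each group in turn, and a fold change is on the log2 scale with its 95% confidence interval. *Dnajb9* (ENSMUSG00000014905, GRCm38 chr12:44205559-44210326, minus strand) encodes an ER J-domain protein, a co-chaperone that delivers clients to the chaperone BiP. Its libraries held 44.8, 43.1, 48.9 and 53.3 CPM with vehicle, 50.7, 52.1, 47.6 and 47.8 CPM at 10 µM, and 33.3, 29.2, 29.3 and 27.0 CPM at 50 µM. Every library at 50 µM lay below every library of the other groups, which overlapped with each other. Expression fell by 37.2% at 50 µM relative to vehicle, a log2 fold change of -0.67 (-0.87 to -0.47, edgeR adjusted p = 0.000483). Relative to 10 µM it fell by 39.9%, a log2 fold change of -0.73 (-0.90 to -0.57, edgeR adjusted p = 1.36e-05). At 10 µM the difference from vehicle was 0.06 (-0.11 to 0.23, edgeR adjusted p = 0.912). Both calls at 50 µM held in all 17 alternative analyses.

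*Xbp1* (ENSMUSG00000020484, GRCm38 chr11:5520659-5525893, plus strand) encodes the transcription factor that IRE1 activates by splicing, and counts per gene do not separate its spliced from its unspliced mRNA. It was measured at 451, 444, 463.5 and 541 CPM with vehicle, at 436, 440.1, 429.5 and 416 CPM at 10 µM and at 508, 501, 534 and 536 CPM at 50 µM. All libraries at 10 µM were below all vehicle libraries, and all libraries at 50 µM were above them except vehicle replicate 4, the highest of the 12. Between the doses *Xbp1* rose by a log2 fold change of 0.27 (0.16 to 0.39, edgeR adjusted p = 0.00346), or 21.0%, and this call held in all 17 alternatives. Neither dose differed from vehicle at the threshold, with -0.14 (-0.30 to 0.01, edgeR adjusted p = 0.614) at 10 µM and 0.14 (-0.03 to 0.30, edgeR adjusted p = 0.276) at 50 µM. Without vehicle replicate 4 the value at 50 µM was 0.21 and passed (edgeR adjusted p = 0.0336). The factor and *Dnajb9* thus differed between the doses in opposite directions.

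**Figure D2:**
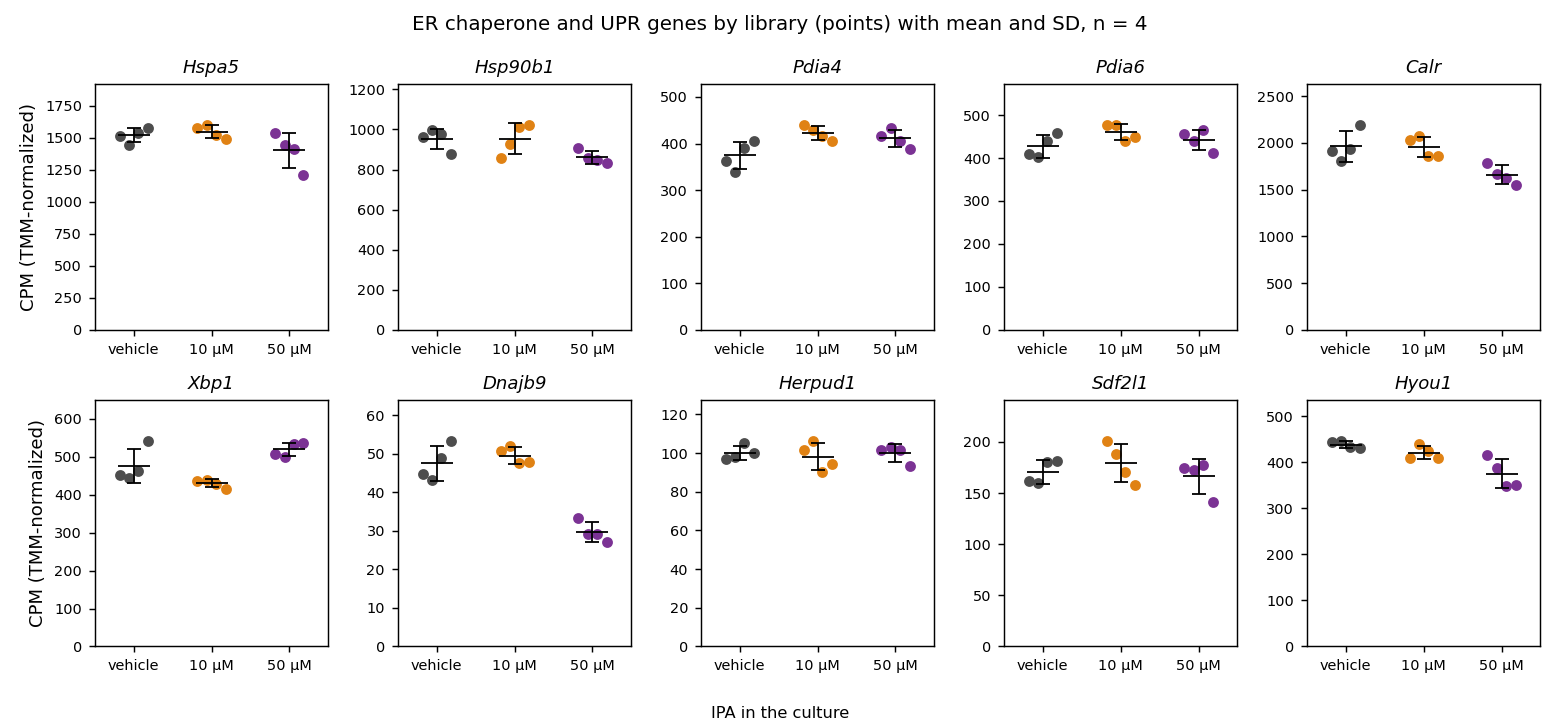
Expression of the 10 genes in CPM, normalized by TMM, in each library (points), with the mean and SD of the 4 libraries of a group (bars), for vehicle, 10 µM and 50 µM IPA, on axes that start at 0. The 50 µM libraries of *Dnajb9*, between 27.0 and 33.3 CPM, lie below all others, while those of *Herpud1* and *Pdia6* lie among them.

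Among the lumenal chaperones, *Calr* (ENSMUSG00000003814, chr8:84841850-84846934) encodes calreticulin, a lectin chaperone that binds calcium. Its libraries held 1914, 1805, 1936 and 2194 CPM with vehicle, 2027, 2069, 1864 and 1858 CPM at 10 µM, and 1787, 1672, 1629 and 1546 CPM at 50 µM. The 50 µM libraries lay below all others. Relative to 10 µM *Calr* fell by 14.9%, a log2 fold change of -0.23 (-0.37 to -0.10, edgeR adjusted p = 0.0193). This call was lost when 10 µM replicate 2 was left out (-0.20, edgeR adjusted p = 0.0804), and likewise when 50 µM replicate 4 was left out (-0.20, edgeR adjusted p = 0.0777). The difference from vehicle had much the same size, -0.24 (-0.40 to -0.07), and missed the threshold (edgeR adjusted p = 0.0644), but it passed in 7 of 17 alternatives. At 10 µM the difference from vehicle was -0.01 (-0.16 to 0.15, edgeR adjusted p = 0.993).

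*Hyou1* (ENSMUSG00000032115, chr9:44379490-44392369) encodes a large heat shock family protein of the ER that exchanges the nucleotide of BiP. It was measured at 443, 446, 433 and 432 CPM with vehicle, at 410.3, 440.2, 425 and 409 CPM at 10 µM, and at 415, 387, 348 and 352 CPM at 50 µM. The vehicle libraries lay close together and above all 50 µM libraries, whereas the 50 µM libraries were spread over a wider range and reached into that of 10 µM. The difference at 50 µM from vehicle was -0.22 (-0.37 to -0.06) and missed the threshold (edgeR adjusted p = 0.0644), and it passed in 5 of 17 alternatives. It was -0.16 (-0.30 to -0.02, edgeR adjusted p = 0.113) between the doses and -0.06 (-0.17 to 0.06, edgeR adjusted p = 0.856) at 10 µM.

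*Hspa5* (ENSMUSG00000026864, chr2:34771970-34777547) encodes BiP, the main lumenal chaperone and the textbook marker of the response. It was measured at 1518, 1447, 1540 and 1578 CPM with vehicle, at 1574, 1603, 1521 and 1489 CPM at 10 µM and at 1541, 1442, 1415 and 1211 CPM at 50 µM. The groups overlapped, and the lowest value was that of 50 µM replicate 4. No difference passed: it was 0.02 (-0.10 to 0.15, edgeR adjusted p = 0.953) at 10 µM and -0.11 (-0.28 to 0.06, edgeR adjusted p = 0.405) at 50 µM against vehicle, and -0.14 (-0.29 to 0.01, edgeR adjusted p = 0.204) between the doses. The intervals at 50 µM leave room for a fall of the size seen in *Calr*, but not for one of the size seen in *Dnajb9*.

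*Hsp90b1* (ENSMUSG00000020048, chr10:86690209-86705509) encodes the ER member of the HSP90 family. Its libraries held 963, 996, 976 and 880 CPM with vehicle, 857, 926, 1012 and 1024 CPM at 10 µM, and 908, 859, 846 and 831.5 CPM at 50 µM. The 50 µM group was the lowest on average (861 ± 33.2 CPM, against 953.8 ± 51.0 with vehicle, SD, n = 4), but 1 of its libraries lay above the lowest vehicle library. The difference from vehicle was 0.00 at 10 µM (-0.15 to 0.16, edgeR adjusted p = 0.998) and -0.14 at 50 µM (-0.28 to 0.00, edgeR adjusted p = 0.189), and that between the doses -0.15 (-0.29 to -0.01, edgeR adjusted p = 0.153). The gene shares 632 exonic bases with overlapping genes, 1 of them on the opposite strand, and the strand setting of the counting is not named in the sources used here.

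*Pdia4* and *Pdia6* encode disulphide isomerases, which form and rearrange disulphide bonds, and neither passed the test in any comparison. *Pdia4* (ENSMUSG00000025823, chr6:47796141-47813430) was measured at 363, 339, 391 and 405.2 CPM with vehicle, at 440.4, 429.8, 415.5 and 405.3 CPM at 10 µM and at 417, 433, 406 and 389 CPM at 50 µM. All 10 µM libraries lay above the vehicle libraries, but the closest pair was almost level (405.3 against 405.2 CPM). The difference from vehicle was 0.17 (0.03 to 0.32, edgeR adjusted p = 0.449) at 10 µM and 0.14 (-0.02 to 0.30, edgeR adjusted p = 0.249) at 50 µM, and that between the doses -0.04 (-0.16 to 0.09, edgeR adjusted p = 0.729). *Pdia6* (ENSMUSG00000020571, chr12:17266545-17284770) had means of 427.3 ± 26.9 CPM with vehicle, 460.6 ± 19.1 CPM at 10 µM and 442.5 ± 23.0 CPM at 50 µM (SD, n = 4). Its groups overlapped, with differences of 0.11 (-0.03 to 0.25, edgeR adjusted p = 0.712), 0.06 (-0.10 to 0.21, edgeR adjusted p = 0.655) and -0.05 (-0.18 to 0.07, edgeR adjusted p = 0.603) in the 3 comparisons.

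*Sdf2l1* (ENSMUSG00000022769, chr16:17130138-17132383) encodes a soluble partner of ER J-domain proteins. It was measured at 162, 159.7, 181 and 182 CPM with vehicle, at 201, 188, 170.4 and 158 CPM at 10 µM, and at 175, 173, 177 and 141 CPM at 50 µM, and the groups overlapped in each comparison. Differences from vehicle were 0.07 (-0.11 to 0.25, edgeR adjusted p = 0.906) at 10 µM and -0.03 (-0.22 to 0.16, edgeR adjusted p = 0.856) at 50 µM. Between the doses the difference was -0.10 (-0.29 to 0.08, edgeR adjusted p = 0.471). *Herpud1* (ENSMUSG00000031770, chr8:94386438-94395377), a membrane component of ER-associated degradation, had means of 100 ± 3.66 CPM with vehicle, 98.1 ± 7.08 CPM at 10 µM and 99.9 ± 4.60 CPM at 50 µM (SD, n = 4). Its fold changes were -0.03 (-0.17 to 0.12, edgeR adjusted p = 0.956), 0.01 (-0.14 to 0.15, edgeR adjusted p = 0.972) and 0.03 (-0.12 to 0.18, edgeR adjusted p = 0.825), at 10 µM, at 50 µM and between the doses. The value at 50 µM against vehicle changed sign with the scaling, and each of the 3 did so when certain single libraries were left out, as given in the closing section. *Herpud1* had the smallest fold change of the 10 genes at 50 µM against vehicle, with an interval narrower than the change of *Dnajb9*.

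The sum over the 10 genes lay between 6180 and 6824 CPM with vehicle, between 6351 and 6731 CPM at 10 µM and between 5537 and 6340 CPM at 50 µM. The lowest sum was that of 50 µM replicate 4, which held the lowest value of its group for 8 of the 10 genes. Without this library, 1 gene was still called at 50 µM against vehicle and 2 between the doses. Over the 12 libraries, Pearson's r between members, as a description without a test, was positive for 32 of the 45 pairs. It was highest for *Calr* and *Dnajb9* (0.925, and 0.944 after the group means were taken out) and for *Hspa5* and *Calr* (0.856, and 0.783). The most negative pair was *Hsp90b1* and *Xbp1* (-0.755, and -0.676). Libraries share their cell makeup across genes. They also differ in the slope of log2 CPM on log2 exon length, from -0.0562 (50 µM replicate 3) to 0.0426 (vehicle replicate 2). The correlations therefore do not isolate pairs of genes. The 10 genes whose log2 CPM followed the mean z-score of the members most closely were *Aida* (r = 0.931), *Ttc33* (0.924), *Grwd1* (0.924), *Jpt1* (0.914), *Gsto1* (0.913), *Ltbr* (0.913), *Commd8* (0.911), *Ddx39* (0.904), *Bcl2l1* (0.904) and *Manf* (0.903). Of these, *Manf* encodes an ER-resident secreted factor of the response. For *Dnajb9* alone, a gene picked here after its values were seen, the closest were *Ms4a6d* (0.987), *Sdc4* (0.987) and *Casp6* (0.984).

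The remaining genes of the pathway were grouped by role. Of the sensors, their proteases and related factors, 10 were tested. *Eif2ak3*, which encodes PERK, fell at 50 µM against vehicle, from 49.6 ± 3.68 to 39.0 ± 1.102 CPM (SD, n = 4), a log2 fold change of -0.34 (-0.51 to -0.17, edgeR adjusted p = 0.0109). *Creb3l1*, an ATF6-like membrane factor, was low, with 4.69 ± 0.840 CPM with vehicle, 7.255 ± 0.387 CPM at 10 µM and 7.25 ± 0.236 CPM at 50 µM. It rose by 0.64 (0.31 to 0.96, edgeR adjusted p = 0.0146) at 50 µM against vehicle. The difference at 10 µM was of similar size, 0.63 (0.31 to 0.95), and its libraries did not overlap those with vehicle either, but it missed the threshold (edgeR adjusted p = 0.115) and was called in 3 of 17 alternatives. Between the doses it was 0.00 (-0.25 to 0.26). *Ern1*, which encodes IRE1, had 44.2 ± 5.63 CPM with vehicle, 45.1 ± 2.72 CPM at 10 µM and 54.9 ± 6.76 CPM at 50 µM. It was higher at 50 than at 10 µM by 0.29 (0.10 to 0.47, edgeR adjusted p = 0.0345) and missed the threshold against vehicle (0.32, edgeR adjusted p = 0.0661). *Mbtps2*, a protease that cleaves ATF6, was also higher at 50 than at 10 µM (0.24, edgeR adjusted p = 0.0365). The call of *Mbtps2* held in 7 of 17 alternatives and that of *Ern1* in 12 of 17, and neither held without 10 µM replicate 2, 50 µM replicate 2 or 50 µM replicate 4. *Atf6* was at 90.96 CPM with vehicle and 90.46 CPM at 50 µM, with a difference of 0.00 (-0.16 to 0.16). For *Atf6b*, *Mbtps1*, *Creb3*, *Creb3l2* and *Rtcb* the differences at 50 µM from vehicle lay between -0.16 and 0.07, and none of them passed in any comparison. At 50 µM against vehicle DESeq2 called 2 of the 10 genes higher and 1 lower, where edgeR called 1 higher and 1 lower.

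The genes of the PERK, ATF4 and CHOP arm were the ER list with most calls, all of them higher. Of 13 tested, 11 were called higher and 0 lower at 50 µM against vehicle, and 10 higher and 0 lower between the doses, where 7.00% and 7.52% of all genes tested were called higher. At 10 µM against vehicle 0 were called by edgeR, and 1, *Atf3*, had an unadjusted p under 0.05. The median log2 fold change of the list was 0.64 against vehicle and 0.52 between the doses, and 0.03 at 10 µM. *Asns*, asparagine synthetase, rose from 66.6 ± 9.32 CPM with vehicle and 65.7 ± 4.33 CPM at 10 µM to 132.8 ± 15.5 CPM at 50 µM (log2 fold change 1.00, edgeR adjusted p = 7.59e-05). *Trib3*, a pseudokinase induced by CHOP, rose from 14.3 ± 3.63 to 35.7 ± 6.82 CPM (1.33, edgeR adjusted p = 0.000284). *Atf4* itself rose from 281.7 ± 5.73 to 396.7 ± 38.1 CPM (0.50, edgeR adjusted p = 0.00085) and *Sesn2*, a stress-induced inhibitor of mTORC1, from 74.7 to 105.4 CPM (0.50, edgeR adjusted p = 0.0005). Between the doses, *Chac1*, a glutathione-degrading enzyme (1.15, edgeR adjusted p = 0.00013), and *Ddit3*, which encodes CHOP (0.96, edgeR adjusted p = 0.000586), also rose. For all these genes the 50 µM libraries lay above those of the other groups. *Atf3*, a stress-induced transcription factor, had another order, with 54.3 ± 8.56 CPM with vehicle, 79.8 ± 8.98 CPM at 10 µM and 71.05 ± 2.23 CPM at 50 µM. It was called higher at 50 µM against vehicle (0.40, edgeR adjusted p = 0.0179). At 10 µM its difference was 0.56 (0.31 to 0.80, edgeR adjusted p = 0.0712), which was called in 4 of 17 alternatives, among them DESeq2 and the one without vehicle replicate 3, and between the doses it was -0.16 (-0.33 to 0.00, edgeR adjusted p = 0.179). Over the 17 alternatives the count stayed at 10 or 11 against vehicle and at 10 between the doses. *Asns*, *Trib3*, *Chac1* and *Sesn2* are also known to respond to a shortage of amino acids, so the list is not specific to the ER.

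**Figure D3:**
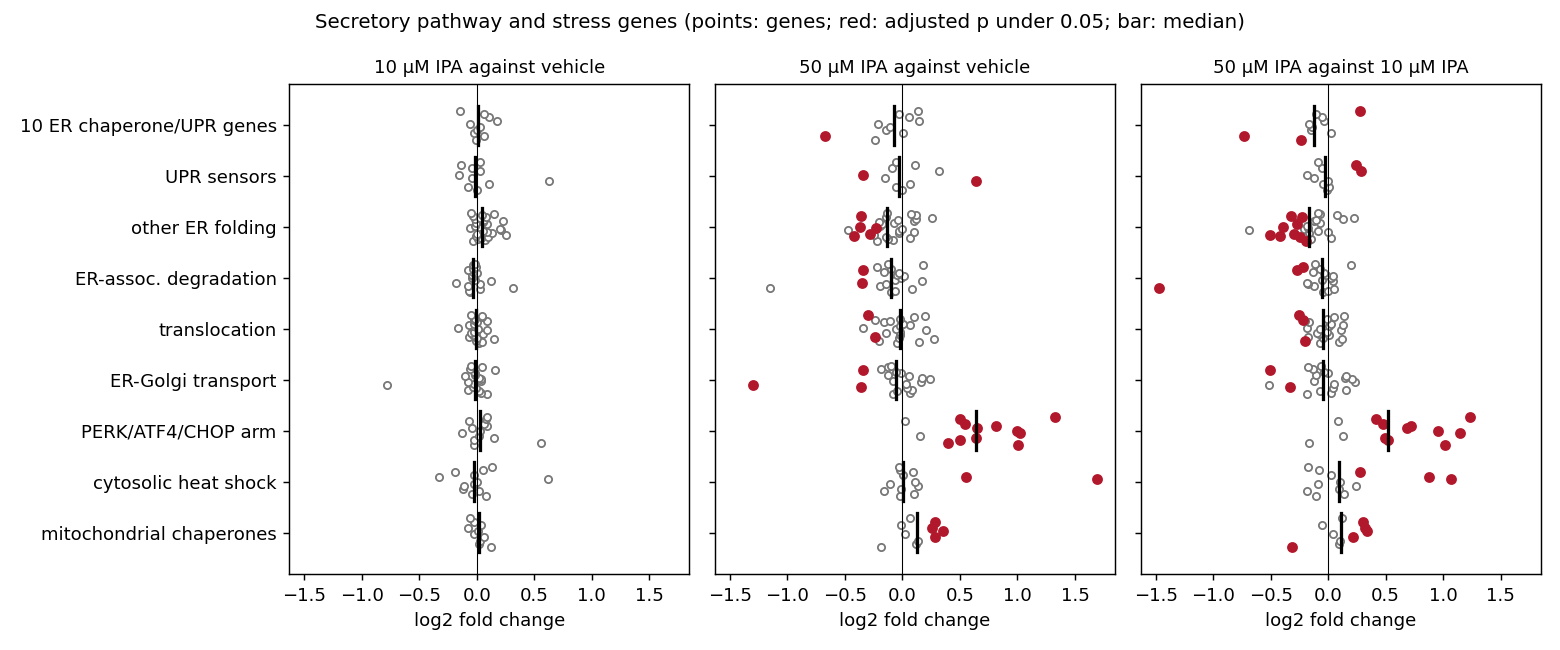
Log2 fold changes by edgeR of the tested genes of each list (points), with genes at an adjusted p under 0.05 in red and the median of each list as a bar, in the 3 comparisons. In both comparisons with 50 µM the genes of the PERK, ATF4 and CHOP arm lie mainly to the right of zero, with medians of 0.64 and 0.52, while called genes of the other ER lists lie mainly to the left.

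Further folding factors of the ER moved in the direction of *Dnajb9* and *Calr* where they passed. Of 28 tested chaperones, co-chaperones and folding enzymes, 5 were called lower and 0 higher at 50 µM against vehicle, and 9 lower and 0 higher between the doses, with medians of -0.13 and -0.17. Of all genes tested, 6.50% and 7.85% were called lower in these comparisons. At 10 µM against vehicle edgeR and DESeq2 called 0 of the 28, and 1 had an unadjusted p under 0.05. *Dnajc3*, another J-domain co-chaperone of BiP, which also inhibits PERK, fell from 209.5 ± 4.16 CPM with vehicle and 209.1 ± 7.49 CPM at 10 µM to 155.9 ± 6.75 CPM at 50 µM. Its log2 fold change was -0.42 (-0.56 to -0.28, edgeR adjusted p = 0.000921) against vehicle. *Hspa13*, a heat shock family protein of microsomes, fell by 0.37 on the log2 scale (edgeR adjusted p = 0.0111), *Txndc11* by 0.36 (edgeR adjusted p = 0.0201), *Ero1lb*, an oxidase of disulphide isomerases, by 0.29 (edgeR adjusted p = 0.0209), and *Ganab*, a subunit of glucosidase II, by 0.23 (edgeR adjusted p = 0.0493). Between the doses *P4hb*, the most abundant disulphide isomerase of the list, fell from 1689 to 1397 CPM (-0.27, edgeR adjusted p = 0.0104), and *Dnajc10* fell as well (-0.24, edgeR adjusted p = 0.0144). *Ero1l* was called lower between the doses (-0.50, edgeR adjusted p = 0.0134), although its groups overlapped. The counts fell to 2 against vehicle without vehicle replicate 3 or without 50 µM replicate 4, and to 4 between the doses without 50 µM replicate 4.

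Of 19 tested genes of ER-associated degradation, 2 were called lower and 0 higher at 50 µM against vehicle, *Syvn1*, the main ubiquitin ligase of the pathway (-0.34, edgeR adjusted p = 0.0171), and *Edem3*, a mannose-trimming factor (-0.35, edgeR adjusted p = 0.0219). Beside the shares of all genes given above, the count of this list and that of the next, 2 of 23, are close to the background. The count was 4 by DESeq2, and 1 without vehicle replicate 1 or 3 or without 50 µM replicate 2 or 4. Between the doses the 3 called lower were *Syvn1*, *Ube2j1*, a ubiquitin-conjugating enzyme, and *Derl3*, and 0 were called without 50 µM replicate 2 or without 50 µM replicate 4. Without 10 µM replicate 4 or without 50 µM replicate 1 a further gene, *Ubxn4*, was called higher. *Derl3*, which plasma cells also express, fell by 1.47 on the log2 scale (edgeR adjusted p = 0.0181) at only 8 to 52 counts per library. Of 23 tested genes of signal recognition, translocation and signal peptide cleavage, *Tram1* (-0.30, edgeR adjusted p = 0.0343) and *Sec62* (-0.24, edgeR adjusted p = 0.0288) were called lower against vehicle. Between the doses *Tram1*, *Ssr1* and *Sec61a1* were called lower, by 0.20 to 0.25 on the log2 scale, and 1 of them remained called without 10 µM replicate 1 or 2 or without 50 µM replicate 2 or 4. The calls against vehicle numbered 0 without vehicle replicate 3, without 50 µM replicate 2 or without 50 µM replicate 4, and also with a replicate block. Without vehicle replicate 4 they numbered 4, of which 2, *Sec61b* and *Ssr4*, were higher, and by DESeq2 they numbered 4, all lower. Of 20 tested genes of ER to Golgi transport, *Kdelr2*, a receptor that returns lumenal chaperones to the ER, fell against vehicle (-0.36, edgeR adjusted p = 0.0151) and between the doses (-0.33, edgeR adjusted p = 0.00329). *Sec24d*, a coat protein of transport vesicles, fell in both comparisons too (-0.34, edgeR adjusted p = 0.0266, and -0.50, edgeR adjusted p = 0.00177). *Kdelr3* was called lower against vehicle (-1.30, edgeR adjusted p = 0.025) at 12 to 53 counts per library, and 1 gene of this list was called without 50 µM replicate 4. Without vehicle replicate 4 there were 4 calls, of which 2, *Sec13* and *Sar1b*, were higher. At 10 µM against vehicle, edgeR called 0 genes of these 3 lists, as did each of the 17 alternatives, and 1, 0 and 1 of their genes had an unadjusted p under 0.05.

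Chaperones outside the ER were listed for comparison. Of 13 tested cytosolic heat shock genes, *Hspa1a* (1.69, edgeR adjusted p = 0.0135) and *Hspa1b* (0.55, edgeR adjusted p = 0.0214) were called higher at 50 µM against vehicle, beside 7.00% of all genes. Their sequences are nearly identical and their reads can be split between them, and both were low, with 2.12 and 5.67 CPM at 50 µM. The count of 2 became 1 without 50 µM replicate 1 or without a filter on low counts. Between the doses, where 7.52% of all genes were called higher, *Hspa4l* was called higher as well. The count of 3 became 1 without 10 µM replicate 2, without 50 µM replicate 4 or with all 12 libraries in 1 fit. Of 10 mitochondrial chaperones and proteases, *Hspa9* (0.28, edgeR adjusted p = 0.0135), *Trap1* (0.28, edgeR adjusted p = 0.024), *Htra2* (0.26, edgeR adjusted p = 0.03) and *Hspe1* (0.35, edgeR adjusted p = 0.0382) were called higher against vehicle, and this count of 4 became 1 or 2 when any library other than vehicle replicate 4 was left out. The same 4 genes were called higher between the doses, and *Afg3l2*, a subunit of an inner membrane protease, was called lower (-0.31, edgeR adjusted p = 0.00812), a call that held in 17 of 17 alternatives. At 10 µM against vehicle 0 genes of both lists were called by edgeR and in each of the 17 alternatives, and 1 and 0 had an unadjusted p under 0.05.

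Markers of several cell types differed between the groups, some of them not in the order of the doses. In bulk samples fewer cells of a type and less RNA per cell cannot be told apart. The counts of called markers that follow stand beside 7.00% of all genes called higher and 6.50% lower at 50 µM against vehicle, and 7.52% and 7.85% between the doses. At 10 µM against vehicle the shares were 0.329% higher and 0.0806% lower. Markers of granule-forming promyelocytes (6 genes, led by *Mpo*) summed to 1645 to 2376 CPM with vehicle, 1558 to 1738 CPM at 10 µM and 788.6 to 1126 CPM at 50 µM. All 6 were called lower at 50 µM against vehicle, and 5 of them between the doses. Markers of Ly6C-high monocytes (6 genes, led by *Fn1*) summed to 2687 to 3423, 3837 to 4923 and 2417 to 3120 CPM. At 50 µM 3 were called lower against vehicle, and 5 between the doses. At 10 µM against vehicle 1, *Fn1*, was called higher and 0 lower. This call held in 14 of 17 alternatives, but not with a replicate block or without vehicle replicate 1 or 10 µM replicate 2. Macrophage markers (12 genes, led by *Gpnmb*) summed to 2807 to 3340, 3906 to 4521 and 4323 to 4678 CPM, and *Gpnmb* and *Ctsl* were called higher in each comparison. The single markers did not share one direction: 6 were called higher and 0 lower at 10 µM against vehicle, 4 higher and 2 lower at 50 µM against vehicle, and 3 higher and 7 lower between the doses, with a median log2 fold change of -0.31 in the last. The 6 at 10 µM became 0 with a replicate block, without vehicle replicate 1 or without 10 µM replicate 2, 1 without vehicle replicate 2 or without 10 µM replicate 1 or 3, 2 without vehicle replicate 3 and 3 without 10 µM replicate 4, and the 7 lower between the doses became 4 without 50 µM replicate 4. Markers of B and plasma cells (13 genes, led by *Ighm*) summed to 110.4 to 128.3, 139.9 to 177.3 and 133 to 178.9 CPM, and at 50 µM against vehicle 7 of the 12 tested, all of them genes of B cells or immunoglobulins, were called higher and 1 lower. The lower one was *Sdc1*, syndecan-1, a surface marker of plasma cells, with 42.1 ± 3.04 CPM with vehicle, 63.45 ± 6.13 CPM at 10 µM and 27.6 ± 6.25 CPM at 50 µM (SD, n = 4). It rose at 10 µM against vehicle (0.59, edgeR adjusted p = 0.0164), a call that held in 10 of 17 alternatives. The call was lost with a replicate block and when any library other than vehicle replicate 4 or 10 µM replicate 4 was left out. It fell at 50 µM against vehicle (-0.60, edgeR adjusted p = 0.00949) in 17 of 17 alternatives, and between the doses it and *Derl3* were the 2 called lower, beside 5 called higher. Of other plasma cell genes, *Jchain* and *Mzb1* had group means of at most 2.09 and 0.80 CPM and were not called. *Tnfrsf17* was removed by the filter, and whether *Sdc1* came from plasma cells was not tested. Mature neutrophil markers (9 genes, led by *S100a9*, at 5135 CPM in its lowest library) had 3 called lower at 50 µM against vehicle, *Cxcr2*, *Csf3r* and *Il1r2*, and 1 called higher, *Mmp9*, with a median of -0.34. *Cxcr2* was the 1 still called lower without vehicle replicate 3 or without 50 µM replicate 1 or 2, while without 50 µM replicate 3 there were 5 called lower and without vehicle replicate 4 there were 3 called higher. Without vehicle replicate 2 or without 50 µM replicate 4 there were 2 called lower. In the same comparison 3 dendritic cell markers of 10 (led by *Itgax*) were called higher and 2 lower, which became 1 higher and 1 lower without vehicle replicate 3 or without 50 µM replicate 2. The 2 lower were also 1 without any other 50 µM replicate and with a replicate block, and 3 without vehicle replicate 4. Of 7 mast cell and basophil markers (led by *Prss34*), *Gata2* was called higher and *Kit* lower, and of 5 eosinophil markers (led by *Prg2*), *Ccr3* was called higher, each of these counts being a single gene and close to the background. *Mcpt8* was also called lower without vehicle replicate 1 or 2 or without 50 µM replicate 3, and *Prss34* higher without vehicle replicate 4. T and NK cell markers (7 genes, led by *Nkg7*) summed to at most 20.14 CPM in any library and erythroid markers (7 genes, led by *Hba-a1*) to at most 1.52 CPM, and of the 5 and 1 of them that were tested edgeR called 0, with 0 at an unadjusted p under 0.05, in each comparison. No marker of any list was at 0 in all 12 libraries. The part of these shifts, or of the lower viability reported at 50 µM, in the values of *Dnajb9*, *Calr*, *Xbp1* and the other genes was not tested.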

How the data were processed

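RNA-seq libraries of bone marrow cells cultured for 5 days were compared between vehicle, 10 µM and 50 µM IPA (n = 4 each). Per the methods and labels, the authors used Atropos for trimming, HISAT2 2.2.1 for alignment to the mm10 genome and featureCounts 2.0.1 for counting on Ensembl genes. The deposited values are raw counts without normalization, 20451312 to 28038612 per library. The table pairs gene identifiers with symbols, and all its columns of counts were matched to samples. The title of 10 µM replicate 3 repeats that of replicate 2, so its library name was used.

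Genes above 0.5 CPM in at least 2 of the 12 libraries were tested with edgeR 4.0.16 in R 4.3.3 (TMM, glmQLFit and glmQLFTest, no replicate block), separately for each pair of groups, with Benjamini-Hochberg adjustment. By this test 61, 2010 and 2289 genes were called at 10 µM against vehicle, 50 µM against vehicle and 50 against 10 µM. The scripts were tested on simulated data. CPM were normalized by TMM over the 12 libraries, and TPM used exon lengths of GENCODE M21 on GRCm38, the build of the files. Promoters are those of RefSeq on GRCm38.p6.

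The 10 genes and the other lists were chosen with earlier results of these data known, as were the tests. From each other list at most the 5 called genes with the smallest p in a comparison are named, and all sensors. Of each marker list the most abundant gene is named. *Atf3*, *Ubxn4*, *Sec61b*, *Ssr4*, *Sec13*, *Sar1b* and the further markers named fall outside this rule and were chosen after their values were seen. Likeness is Pearson's r on log2(CPM + 0.5) over the 12 libraries. Alternatives were DESeq2 1.42.0, limma-voom (limma 3.58.1), edgeR scaled by the size factors of DESeq2, every gene kept, only genes with at least 10 counts in each library compared, all 12 libraries in 1 fit, a replicate block, offsets for the trend on exon length or GC content (lowess span 0.3), and the omission of single libraries. The decision to count the lists under these alternatives was taken after the results were seen.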

Additional observations from a re-analysis of the deposited data

Results flagged for a closer look

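Between 50 and 10 µM IPA, 3 of the 10 genes differed by edgeR's test, which compares the responses at the 2 doses directly because the vehicle libraries cancel. These were *Dnajb9* with a log2 difference of -0.73, *Calr* with -0.23 and *Xbp1* with 0.27. For *Dnajb9* and *Xbp1* the difference passed in all 17 alternatives, and for *Calr* in 15 of 17.

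In the 50 µM group, *Sdf2l1* had 1 library far from the others, replicate 4 with 140.9 CPM against 172.7 to 177.3 CPM, a Dixon ratio of 0.873, above the 95% critical value for 4 samples. It was the only one of 30 groups checked, and chance flags about 1 group in 20. The same library had the lowest value of its group for 8 of the 10 genes. Without it the log2 fold change of *Sdf2l1* at 50 µM against vehicle was 0.04.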

How the results depend on the processing

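At 10 µM against vehicle, 0 of the 10 genes were called in any of the 17 alternatives, while the count of all genes, 61, became 250 by DESeq2, 150 without a filter, 118 with all 12 libraries in 1 fit, 102 with an offset for exon length and 3 with a replicate block. At 50 µM against vehicle the count of the 10 genes, 1, became 3 by DESeq2, 3 with all 12 libraries in 1 fit, 3 with an offset for GC content, 2 with an offset for exon length and 2 without a filter, and the genes gained were *Calr* and *Hyou1*. The cause of these moves was not tested. With 1 library left out, the counts of all genes ranged from 4 to 122, from 1247 to 2689 and from 1604 to 2269 in the 3 comparisons, and those of the 10 genes from 0 to 0, from 1 to 3 and from 2 to 4. The count of 4 came without 10 µM replicate 2 and that of 1247 without vehicle replicate 3.

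Fold changes close to 0 changed sign. *Hsp90b1* at 10 µM (0.001) became -0.001 by DESeq2, limma-voom, DESeq2's size factors and the replicate block and -0.002 with the offset for exon length, and ranged from -0.035 to 0.050 with 1 library left out. *Herpud1* at 50 µM against vehicle (0.006) became -0.002 by DESeq2, its size factors and the fit of all 12 libraries, -0.004 without a filter, -0.034 and -0.020 with the offsets for exon length and GC content, and ranged from -0.019 to 0.038 with 1 library left out. Leaving out 1 library also gave ranges of -0.045 to 0.052 for *Calr* and -0.067 to 0.010 for *Herpud1* at 10 µM, of -0.071 to 0.040 for *Sdf2l1* at 50 µM against vehicle, and of -0.005 to 0.068 for *Herpud1* between the doses.

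Same-numbered libraries did not deviate together, with correlations of their deviations from -0.337 to 0.188. The main test used no replicate block, since the authors' methods for RNA-seq name none. For flow cytometry of such cultures the authors used repeated measures across the doses, so pairs that the numbers do not follow may exist. The replicate block called 0, 1 and 3 of the 10 genes in the 3 comparisons, as did the analysis without it. With 4 libraries per group, the 95% intervals of the 10 genes' log2 fold changes limit what can be said of those that did not pass.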
